A study of Mus musculus with 18 samples.

Results

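The clustered protocadherins are cadherin-superfamily cell-surface proteins encoded in the alpha, beta and gamma arrays on mouse chromosome 18. Their rows in the deposited table were chosen by gene symbol and position and were selected on having any count in the 18 libraries. The symbol matched 58 rows, and 56 of them had a count, out of 34745 rows in the table and 21351 rows with a count. The members were 13 of 14 alpha rows, 21 of 22 beta rows and 22 of 22 gamma rows. Pcdha7 and Pcdhb1 had 0 counts and were left out, whereas Pcdha3 and Pcdhac1, with 1 count each in total, were just inside the rule.

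The libraries were made from bone marrow-derived macrophages (BMDMs) of Zmat1 knockout mice and wild-type littermates. By the methods of the study the mice had a C57BL/6 background, came from heterozygous crosses and were 4 to 8 weeks old. The cells were grown with M-CSF, the macrophage growth factor, for 3 days by the series' design text and 4 days by the methods, and were then given RANKL, the cytokine that drives osteoclast formation. The 6 groups were WT and KO libraries at RANKL day 0 (M-CSF alone), day 1 and day 3, each with 3 libraries, and every group received M-CSF. The library titles numbered 2 of the WT day 1 libraries as 1 and none as 3, and the one of these with a double hyphen in its title is called 1x here. Nothing in the labels ties a library to a separate animal, so p-values measure the spread between these libraries, which may be technical.

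Total counts per library ranged from 13789775 to 17559958. Zmat1 itself spanned 2.19 to 7.5 CPM (the count relative to the library total, adjusted between libraries as given with the methods) in the libraries labelled WT and 3.49 to 7.61 CPM in those labelled KO, so its level did not separate the labels and the groups are named by label throughout. All 6 macrophage markers were detected, and their summed level was 8030 to 11400 CPM on day 0 and 2690 to 3690 CPM on day 3. Under each label 5 of them were called lower, where 50.2% (WT) and 42.5% (KO) of all genes tested were called in either direction. The 9 osteoclast markers summed to 215 to 915 CPM on day 0 and 8140 to 23200 CPM on day 3. Under each label 8 were called higher, where 23.7% (WT) and 20.2% (KO) of all genes tested were called higher. Markers of other cells were also present. The 14 stromal and osteoblast markers summed to between 99.9 CPM and 30200 CPM in single libraries, and their levels are set beside the protocadherin results. The 10 neural markers, listed because clustered protocadherins are best known in neurons, summed to between 10.7 and 37.2 CPM, with up to 496 counts in a library for Tubb3 and 460 for Syn1, and at most 10 counts for Snap25, Rbfox3, Map2, Elavl3 and Elavl4. Tubb3, a neuronal tubulin, had means of 2.25 and 8.6 CPM on WT days 0 and 3 and 5.8 and 18.7 CPM on KO days 0 and 3, and none of the 3 tested neural markers was called.

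In the alpha and gamma arrays each variable exon carries its own promoter and encodes the whole extracellular part and the membrane span of one isoform, and it is spliced to constant exons that encode a cytoplasmic tail common to the array. Beta genes are single-exon genes without such constant exons. Proteins of all the arrays bind like with like between cells, and in neurons most variable promoters are chosen at random in each cell, with CTCF and cohesin at the promoters, whereas the C-type isoforms (Pcdhac1, Pcdhac2, Pcdhgc3, Pcdhgc4 and Pcdhgc5) follow other rules.

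The shared exons bear on how single rows can be read. All 58 rows had the same positions as in a GRCm38 annotation and together spanned chromosome 18 from 36930184 to 37841873, or 911.7 kb. The gamma constant exons cover 37825021 to 37825079, 37833265 to 37833353 and 37839903 to 37841873, which is 2119 bases that 17 to 22 of the gamma rows contain. Between 27.8% and 66.8% of the exonic bases of a gamma row (median 44.7%) were shared with another row, and between 38.0% and 54.9% (median 53.5%) for alpha rows. Only 2 of the 22 beta rows shared any exonic base, at most 9.67%. How the counting program placed reads from constant exons is not given in the sources used here, so the values of single alpha and gamma rows are uncertain to that extent. A read moved between rows of an array does not alter the sum of that array. A read that was dropped, or counted in several rows, would alter it, so the alpha and gamma sums carry that limit. Constant-exon reads were not counted in every row that holds them. Pcdha7 had 0 counts and Pcdhac2 had 1015, although all 14 alpha rows hold the same constant bases. Pcdhgc4 had 0 counts in KO day 1 library 1, where Pcdhgc3 had 509. The table gives the symbols Pcdha11 and Pcdhga8 to 2 identifiers each. The Pcdhga8 row at 37815079 to 37841873 (ENSMUSG00000023036) is Pcdhgc4 in the annotation and is called Pcdhgc4 here.

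The gamma cluster was about 5-fold higher on RANKL day 3 than on day 0 under both labels. The summed gamma level was 25.0, 25.8 and 76.3 CPM in the WT day 0 libraries and 226, 226 and 252 CPM in the WT day 3 libraries. In the libraries labelled KO it was 59.7, 38.7 and 49.3 CPM on day 0 and 237, 259 and 219 CPM on day 3. Every day 3 library lay above every day 0 library. The means were 42.4 ± 29.4 CPM (SD, n = 3) and 235 ± 14.9 CPM under the WT label, a ratio of 5.55, and 49.2 ± 10.5 CPM and 238 ± 20.0 CPM under the KO label, a ratio of 4.84. WT day 0 library 3 held the highest day 0 sum, and without it the log2 ratio under the WT label went from 2.47 to 3.21. No p is given for a sum over chosen members.

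Day 1 lay between the other days. The gamma sum was 109, 31.1 and 80.6 CPM in the WT day 1 libraries 1, 1x and 2, which overlapped day 0. It was 72.6, 67.3 and 93.5 CPM in the KO day 1 libraries, all above the 3 KO day 0 libraries, at a ratio of 1.58. Between the labels the gamma sums overlapped on every day, with KO to WT ratios of 1.16, 1.06 and 1.01 on days 0, 1 and 3.

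**Figure D1:**
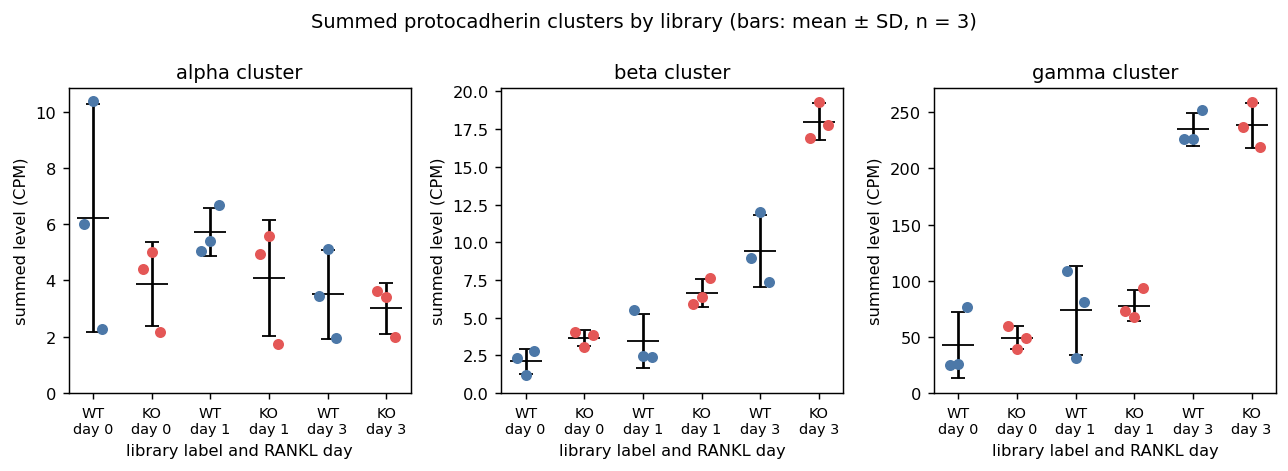
Summed level of the alpha, beta and gamma rows in CPM for each library (points, blue WT label, red KO label) with the mean and SD of 3 libraries per group. The gamma sum sits between 219 and 259 CPM in all 6 day 3 libraries, and the alpha sums overlap throughout. At the scaling shown, the beta sum is higher in the KO than in the WT libraries on each day.

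Pcdhgc3, a C-type isoform at 37806364 to 37841873 (ENSMUSG00000102918), was the most abundant member. Per kilobase of exon its mean level on day 3 was 17 CPM per kb under the WT label and 15.3 CPM per kb under the KO label. Its level was 7.5, 6.65 and 26.4 CPM in the WT day 0 libraries and 87.6, 87.6 and 105 CPM in the WT day 3 libraries. Under the KO label it was 35.8, 18.6 and 14.2 CPM on day 0 and 93.4, 85.5 and 73.4 CPM on day 3. Day 1 was intermediate, at 35.8, 11.7 and 44.8 CPM in WT libraries 1, 1x and 2 and at 32.6, 33.4 and 33.7 CPM in the KO libraries. No day 3 library overlapped day 0, and the log2 fold changes were 2.78 ± 0.53 (SE, edgeR adjusted p = 0.000713) and 1.88 ± 0.51 (edgeR adjusted p = 0.00932). On day 3 the label difference was a log2 fold change of -0.15 (edgeR adjusted p = 0.931). Pcdhgc3 held 33.0% to 41.4% of the gamma counts in the 6 day 3 libraries and 25.8% to 59.9% in the day 0 libraries.

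Pcdhgc4, the neighbouring C-type isoform, was the single member called between the labels. On day 3 it had 1072, 469 and 659 counts in the WT libraries and 13, 23 and 5 counts in the KO libraries. These are levels of 55.3, 27.6 and 37.0 CPM against 0.774, 1.41 and 0.283 CPM, with no overlap. The log2 fold change of KO over WT was -5.60 ± 0.91 (SE, edgeR adjusted p = 0.0226), and the call was lost in each of the 6 fits that left out 1 day 3 library, in which the log2 fold change stayed between -6.22 and -5.19 and the adjusted p lay between 0.0537 and 0.133. It was the 1 row called among the 29 members tested, of 56, where 0.14% of the 14241 genes tested were called and 0.0562% were called lower.

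Before day 3 Pcdhgc4 was low under both labels. It had 0, 31 and 5 counts in the WT day 0 libraries, at most 3 counts in the WT day 1 libraries, 1 count in each KO day 0 library and at most 4 counts in the KO day 1 libraries. From day 0 to day 3 it rose under the WT label by a log2 fold change of 5.43 ± 0.91 (edgeR adjusted p = 0.000285). In the KO groups it went from 3 counts over the group to 41, a rate ratio of 11.0 with an exact 95% counting interval from 3.5 to 55.4, and was also called (edgeR adjusted p = 0.0463). This call was lost in 5 of the 6 fits that left out 1 library (adjusted p up to 0.152) and with replicate number as a block (edgeR adjusted p = 0.0743). The difference between these changes, KO minus WT, was -2.09 ± 2.05 on the log2 scale (SE) and was not called (edgeR adjusted p = 0.939).

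Apart from Pcdhgc3, the row that led the gamma counts differed from library to library. Pcdhgc4 led in all 3 WT day 3 libraries, with 24.4%, 12.2% and 14.7% of the gamma counts. Each KO day 3 library had another leading row: Pcdhga2 in library 1 with 1095 counts (27.6%), Pcdhgb1 in library 2 with 1590 counts (37.5%) and Pcdhga1 in library 3 with 820 counts (21.2%). Over the 18 libraries 9 different rows led. On days 0 and 1 the leading row held between 6.38% and 19.5% of the gamma counts.

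The leading rows of the KO day 3 libraries were much higher in 1 library than in its replicates, although Pcdhgb1 was also raised in other day 3 libraries. Pcdhga2 was at 65.2, 1.35 and 1.08 CPM in the KO day 3 libraries and at 0.98, 3.29 and 0.673 CPM in the WT day 3 libraries. Pcdhgb1 was at 12.6, 97.2 and 2.09 CPM under the KO label and 21.9, 7.52 and 1.63 CPM under the WT label. Pcdhga1 was at 1.37, 1.83 and 46.4 CPM under the KO label and 1.91, 0.411 and 3.42 CPM under the WT label. For each of these rows the labels overlapped on day 3. Single high libraries also occurred earlier: Pcdhga2 was at 9.61 CPM in KO day 0 library 3 and at most 0.357 CPM in the other day 0 and day 1 libraries, and Pcdhga1 was at 13.0 CPM in WT day 0 library 3 and 13.9 CPM in KO day 1 library 3. Pcdhgb1 was at most 1.46 CPM in every day 0 and day 1 library. The fitted KO over WT log2 fold changes were 3.77 ± 1.57, 1.85 ± 1.01 and 3.10 ± 1.39, none was called (edgeR adjusted p = 0.419, 0.537 and 0.446), and each turned negative without the single library that held the high value.

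**Figure D2:**
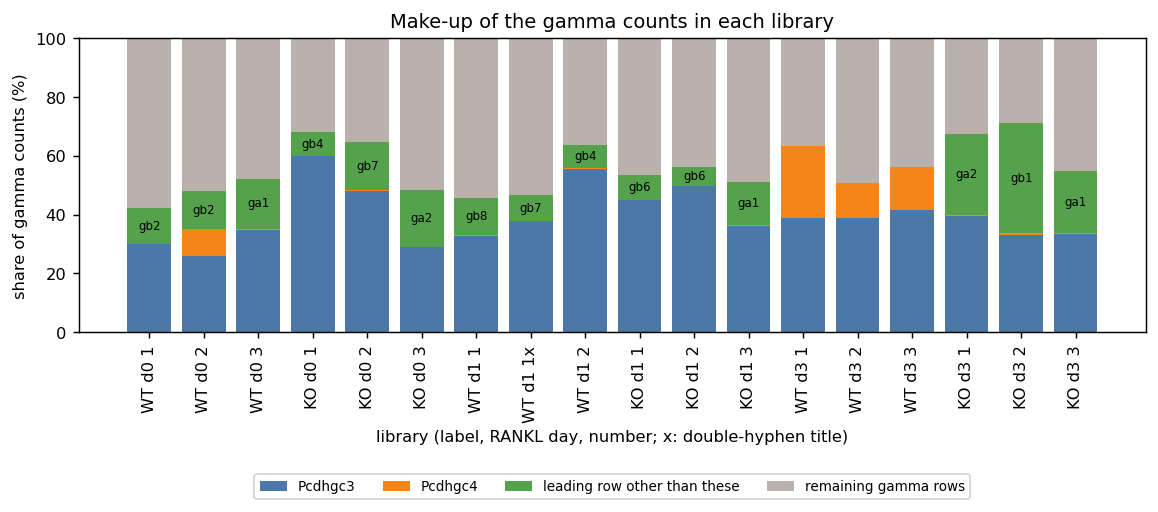
Share of the gamma counts (percent, y axis) in each of the 18 libraries that Pcdhgc3, Pcdhgc4, the leading row other than these and all remaining gamma rows held, with the leading row named in the bar without its Pcdh prefix and no such bar where Pcdhgc4 itself led. Pcdhgc4 takes 12.2% to 24.4% in the WT day 3 libraries, and Pcdhga2, Pcdhgb1 and Pcdhga1 take 21.2% to 37.5% in the KO day 3 libraries.

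Other gamma rows showed the same kind of spread. Among the 21 gamma rows that passed the filter on low counts, 7 (33.3%) had a highest library at least 3-fold above the second highest, against 0.442% of all 14241 genes tested and 0.572% of the 9269 genes in the same range of mean CPM. Besides Pcdhga1, Pcdhga2 and Pcdhgb1 these were Pcdhga6 (19.7 CPM in WT day 3 library 3, next 4.52 CPM), Pcdhga8 (12.8 CPM in WT day 1 library 1, next 2.36 CPM), Pcdhga9 (15.8 CPM in WT day 3 library 2, next 2.94 CPM) and Pcdhgb7 (23.2 CPM in KO day 3 library 3, next 6.38 CPM). Pcdhgb8, the 1 gamma row that did not pass the filter, had 359 counts in WT day 3 library 2, 231 counts in WT day 1 library 1 and at most 10 counts in every other library. No tested beta row and not the tested alpha row reached this ratio. The coefficient of variation between replicates was high in the tested beta rows as well. Many beta rows had few counts, such as 3, 3 and 9 for Pcdhb20 on WT day 3. Counting error adds to the spread of such rows, so their values and those of the gamma rows are not alike. Within the WT day 3 group its median was 47.9% for the tested gamma rows, 52.7% for the tested beta rows and 12.1% for all genes tested. Within the KO day 3 group it was 30.4%, 29.8% and 13.8%. For the 9269 genes in the mean CPM range of the gamma rows it was 14.0% (WT day 3) and 15.8% (KO day 3).

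**Figure D3:**
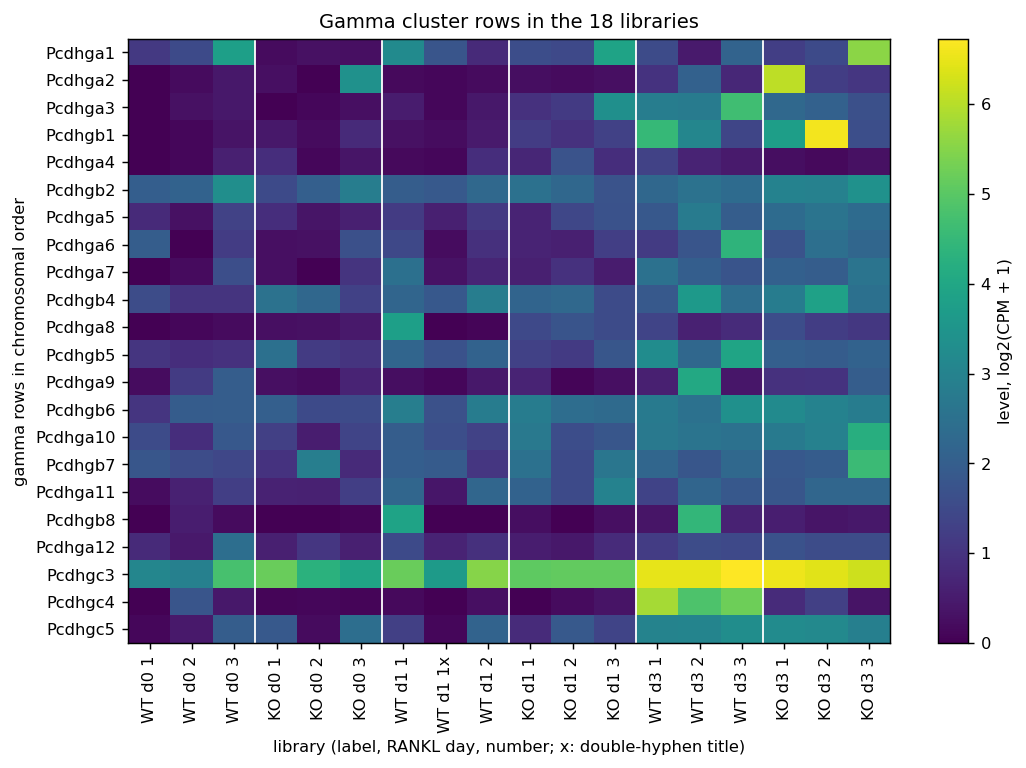
Level of the 22 gamma rows (y axis, in chromosomal order) in the 18 libraries (x axis, grouped by label and RANKL day) as log2(CPM + 1). Pcdhgc3 is bright in all columns, and Pcdhgc4 is bright in the 3 WT day 3 columns. Single bright cells mark rows whose highest library stood well above the next, such as Pcdhgb1 in KO day 3 library 2 (97.2 CPM).

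Pcdhgb2, Pcdhgb4 and Pcdhgb6 were present in every library and were never 3-fold above the next library. Pcdhgb2 was at 3.05, 3.33 and 8.93 CPM in the WT day 0 libraries, 3.71, 4.76 and 4.09 CPM in the WT day 3 libraries, 1.85, 3.07 and 6.26 CPM in the KO day 0 libraries and 6.85, 6.79 and 9.51 CPM in the KO day 3 libraries. It was not called with RANKL under either label. Pcdhgb6 rose from 1.07, 2.86 and 2.93 CPM to 5.73, 4.7 and 9.31 CPM under the WT label and from 3.14, 1.84 and 1.89 CPM to 8.28, 6.91 and 6.11 CPM under the KO label, without overlap in either case. On day 1 Pcdhgb6 was at 6.31, 2.17 and 6.06 CPM in WT libraries 1, 1x and 2 and 6.09, 4.29 and 4.03 CPM in the KO libraries, which overlapped day 3 under the WT label and not under the KO label. Pcdhgb4 rose under the WT label from 1.98, 1.01 and 1.0 CPM to 2.68, 11.2 and 4.26 CPM (log2 fold change 2.18 ± 0.62), whereas under the KO label 4.78, 3.77 and 1.46 CPM on day 0 and 6.07, 13.5 and 4.64 CPM on day 3 overlapped and did not pass the test (edgeR adjusted p = 0.0931). Day 1 levels lay between 2.67 and 3.86 CPM (WT) and between 2.29 and 4.68 CPM (KO) for Pcdhgb2, and between 2.58 and 6.2 CPM and between 1.88 and 3.86 CPM for Pcdhgb4.

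Of the 56 members 29 passed the filter on low counts (1 alpha, 7 beta and 21 gamma rows), and a row that is high in 1 group alone can pass through that group. From day 0 to day 3 under the WT label, 14 members were called, all higher, where 50.2% of all genes tested were called and 23.7% were called higher. Under the KO label 13 members were called, again all higher, where 42.5% of all genes tested were called and 20.2% were called higher. The 2 comparisons share no library, although both come from the same fit. Between them 11 members were called in both, which is 78.6% of the WT calls and 84.6% of the KO calls. The share of all genes called in both is not given here, so this overlap is no result about the members. Pcdhgb4, Pcdhgb5 and Pcdhgc5 were called under the WT label alone and Pcdhb5 and Pcdhga1 under the KO label alone, and none of these was called in the interaction of label and RANKL by edgeR. When each library of the 2 groups was left out in turn, 8 of the 14 WT calls and 8 of the 13 KO calls held in every fit. The calls lost in at least 1 such fit were Pcdhb17, Pcdhb19, Pcdhgb4, Pcdhgb6, Pcdhga10 and Pcdhgc5 under the WT label, with adjusted p up to 0.133, and Pcdhb5, Pcdhb19, Pcdhb22, Pcdhga1 and Pcdhgc4 under the KO label, with adjusted p up to 0.152. The median log2 fold change was 2.18 and 2.03 over the 29 rows and -0.03 and -0.01 over all genes tested.

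Among the gamma rows 10 were called higher under the WT label and 8 under the KO label. Pcdhga3 was at 0, 0.232 and 0.357 CPM in the WT day 0 libraries and 6.19, 6.0 and 24.3 CPM in the WT day 3 libraries, a log2 fold change of 5.85 ± 1.10 (edgeR adjusted p = 0.000634). Pcdhga3 went under the KO label from 0, 0.0769 and 0.218 CPM to 3.81, 3.24 and 2.15 CPM (log2 fold change 4.85 ± 1.17). Day 3 exceeded day 0 in every library for this row, and the WT day 3 libraries lay above the KO day 3 libraries, a difference that was not called (edgeR adjusted p = 0.424). On day 1 Pcdhga3 was at 0.421, 0.0833 and 0.344 CPM in WT libraries 1, 1x and 2 and at 0.961, 1.22 and 9.11 CPM in the KO libraries.

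Pcdhgb1 went from 0, 0.0774 and 0.286 CPM on WT day 0 to the day 3 levels given above, a log2 fold change of 6.26 ± 1.47 (edgeR adjusted p = 0.00301), and from 0.356, 0.154 and 0.728 CPM on KO day 0 by a log2 fold change of 6.46 ± 1.32 (edgeR adjusted p = 0.00172). Pcdhga1 was called under the KO label alone. It rose from 0.143, 0.231 and 0.218 CPM to 1.37, 1.83 and 46.4 CPM (log2 fold change 6.34 ± 1.77, edgeR adjusted p = 0.011). Without KO day 3 library 3 the log2 fold change was 2.97 and the call was lost (edgeR adjusted p = 0.118). Its WT day 0 libraries, at 1.15, 1.86 and 13.0 CPM, overlapped WT day 3.

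Pcdhgb5 rose under the WT label from 1.07, 0.851 and 0.929 CPM to 8.67, 3.76 and 14.1 CPM (log2 fold change 3.21 ± 0.58, edgeR adjusted p = 0.000489). Under the KO label it was at 4.63, 1.23 and 1.02 CPM on day 0 and 3.1, 2.87 and 3.34 CPM on day 3, which overlapped (log2 fold change 0.43 ± 0.53, edgeR adjusted p = 0.532). The KO day 3 libraries lay below the WT day 3 libraries for Pcdhgb5, with a log2 fold change of -1.51 ± 0.53 that was not called (edgeR adjusted p = 0.342). Its day 1 level was 3.61, 2.25 and 3.31 CPM in WT libraries 1, 1x and 2 and 1.47, 1.22 and 2.5 CPM in the KO libraries.

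The remaining called gamma rows had smaller fitted changes than Pcdhga3 and Pcdhgb1. Pcdhga5 went from 0.742, 0.232 and 1.5 CPM to 2.63, 6.0 and 2.97 CPM under the WT label and from 0.855, 0.307 and 0.509 CPM to 4.11, 5.07 and 4.08 CPM under the KO label. Pcdhga10 went from 1.9, 0.851 and 2.64 CPM to 5.57, 5.0 and 4.65 CPM and from 1.43, 0.461 and 1.6 CPM to 5.89, 6.79 and 17.6 CPM. Pcdhgc5, the last C-type gamma isoform, went from 0.0824, 0.387 and 2.93 CPM to 7.07, 7.23 and 8.92 CPM under the WT label and from 2.71, 0.154 and 4.44 CPM to 8.57, 7.95 and 6.45 CPM under the KO label, where it was not called (edgeR adjusted p = 0.202). Their day 1 levels lay between 0.5 and 2.22 CPM (Pcdhga5), 1.52 and 5.64 CPM (Pcdhga10) and 0.0833 and 3.38 CPM (Pcdhgc5) over the 6 libraries. In all 3 rows every day 3 library exceeded every day 0 library of its label. Other gamma rows reached a group mean of 1 CPM without a call. Pcdhga6, Pcdhga7 and Pcdhga11 had group means of 1.42, 0.742 and 0.688 CPM on WT day 0 and 7.78, 3.35 and 2.59 CPM on WT day 3, and of 0.852, 0.411 and 0.83 CPM on KO day 0 and 3.51, 3.69 and 3.26 CPM on KO day 3. Pcdhga12 was at 1.85 CPM on WT day 0 and 1.67 CPM on WT day 3 and at 0.695 and 2.07 CPM under the KO label. Pcdhga4 was highest on KO day 1, at 1.26 ± 0.902 CPM (SD, n = 3), and at 0.176 ± 0.0521 CPM on KO day 3. Without regard to the test, 14 of the 21 tested gamma rows under the WT label and 16 under the KO label had day 3 libraries wholly above day 0, where 31.5% and 29.4% of all genes tested did so.

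**Figure D4:**
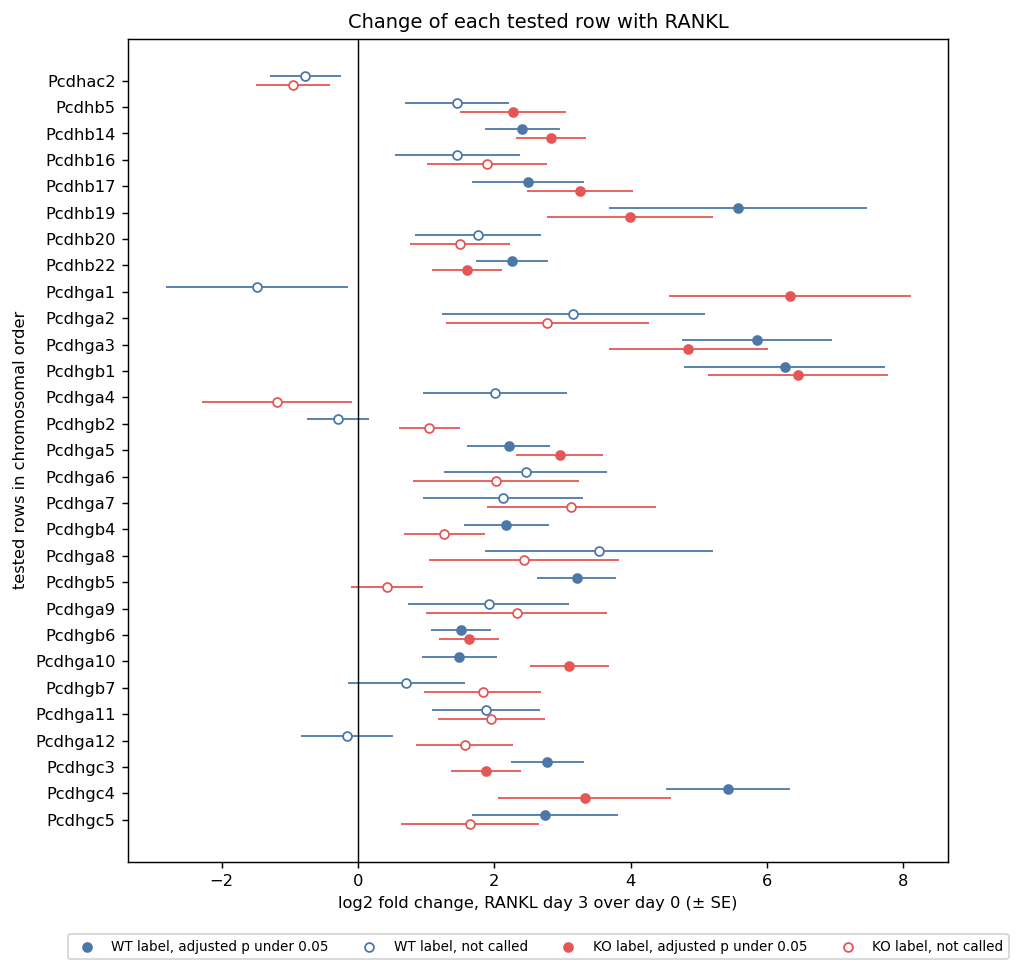
Log2 fold change of RANKL day 3 over day 0 (x axis, with SE) for the 29 tested rows in chromosomal order, under the WT label (blue) and the KO label (red), with filled points for rows called at an adjusted p under 0.05. The called rows, 14 under the WT label and 13 under the KO label, all lie to the right of 0, and Pcdhac2 lies to the left under both.

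The beta cluster was low and was higher on day 3 than on day 0 under both labels. On each day its mean was higher in the libraries labelled KO than in those labelled WT. The summed beta level was 2.31, 1.16 and 2.79 CPM in the WT day 0 libraries, 5.53, 2.42 and 2.41 CPM in WT day 1 libraries 1, 1x and 2, and 8.92, 12.0 and 7.35 CPM in the WT day 3 libraries. In the libraries labelled KO it was 4.06, 3.07 and 3.86 CPM on day 0, 5.90, 6.37 and 7.65 CPM on day 1 and 16.9, 19.3 and 17.8 CPM on day 3. On each day the 3 KO libraries lay above the 3 WT libraries, at ratios of 1.76, 1.92 and 1.91. From day 0 to day 3 the mean went from 2.08 ± 0.836 CPM to 9.42 ± 2.36 CPM (SD, n = 3), a ratio of 4.52, and from 3.66 ± 0.521 CPM to 18 ± 1.22 CPM, a ratio of 4.92.

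No single beta row was called between the labels on any day. The KO libraries lay wholly above the WT libraries for 2 of the 7 tested beta rows on day 0, 2 on day 1 and 4 on day 3 (Pcdhb14, Pcdhb17, Pcdhb19 and Pcdhb20), where 4.9%, 6.83% and 15.9% of all genes tested did so. On day 3 all 7 fitted log2 fold changes were above 0, with a median of 0.92 and a lowest adjusted p of 0.449. For gamma rows on day 3, 3 lay wholly higher and 4 wholly lower under the KO label, where 13.3% of all genes tested lay wholly lower.

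With RANKL 4 beta rows were called higher under the WT label and 5 under the KO label. Pcdhb14 went from 0.0824, 0.0774 and 0.143 CPM to 0.361, 0.764 and 0.617 CPM under the WT label (log2 fold change 2.41 ± 0.55, edgeR adjusted p = 0.00261) and from 0.143, 0.231 and 0.0728 CPM to 0.774, 1.16 and 1.36 CPM under the KO label (log2 fold change 2.83 ± 0.51, edgeR adjusted p = 0.000801). Pcdhb17 went from 0.57, 0.231 and 0.364 CPM to 4.58, 2.75 and 4.08 CPM under the KO label. Under the WT label Pcdhb17 was at 0.165, 0 and 0.5 CPM on day 0 and 1.96, 1.76 and 0.224 CPM on day 3, which overlapped although the row was called (log2 fold change 2.50 ± 0.82, edgeR adjusted p = 0.0205). With replicate number as a block this call was lost (edgeR adjusted p = 0.0691).

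Pcdhb22 had a count in every library. It went from 0.742, 0.464 and 0.572 CPM to 3.3, 3.41 and 1.85 CPM under the WT label and from 1.07, 1.08 and 0.946 CPM to 1.25, 4.95 and 3.23 CPM under the KO label, with every day 3 library above day 0. Pcdhb19 had 0 counts in all WT day 0 libraries and 8, 9 and 4 counts on WT day 3, which was at least 5.04-fold higher when 3 counts over the day 0 group are taken as the floor (edgeR adjusted p = 0.027, and 0.0625 with replicate number as a block). Under the KO label Pcdhb19 went from 3 counts over the group to 65, a rate ratio of 17.4 with an exact 95% counting interval from 5.69 to 86.5. Pcdhb5 was called under the KO label alone, from 0.0713, 0.0769 and 0.291 CPM to 0.655, 0.55 and 1.02 CPM (edgeR adjusted p = 0.0305), and was at 0.247, 0 and 0.357 CPM on WT day 0 and 0.722, 0.764 and 0.224 CPM on WT day 3. On day 1 the levels were between 0.138 and 0.384 CPM for Pcdhb14, 0.333 and 0.769 CPM for Pcdhb17, 0 and 0.626 CPM for Pcdhb19, 0.758 and 2.58 CPM for Pcdhb22 and 0.138 and 0.626 CPM for Pcdhb5. Pcdhb16, which was not called, had a group mean of at most 1.39 CPM, on KO day 3. The 14 beta members that did not pass the filter had between 4 and 19 counts in their highest library. In the fit without the filter Pcdhb3 was called higher from day 0 to day 3 under both labels, going from 0 counts in all WT libraries to 4, 6 and 6 counts and from 1, 0 and 2 counts to 9, 10 and 13 counts in the KO libraries. That fit also called Pcdhb11 higher under the WT label and Pcdhb2, Pcdhb13 and Pcdhb15 higher under the KO label. The share of all genes called in that fit is not given here. Pcdhb9, chosen after its values were seen, had 13, 7 and 15 counts in the KO day 3 libraries and 1, 2 and 0 counts in the WT day 3 libraries, and the label difference was not called in that fit (edgeR adjusted p = 0.283).

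The alpha cluster was low in all groups, and its sum, which rests mostly on Pcdhac2, overlapped between days and labels. The sum was 6.01, 10.4 and 2.29 CPM in the WT day 0 libraries and 3.46, 5.11 and 1.96 CPM in the WT day 3 libraries, and 4.42, 5.0 and 2.18 CPM and 3.63, 3.42 and 1.98 CPM in the same KO groups. The alpha sums overlapped in all 7 comparisons of days or labels. Pcdhac2, a C-type alpha isoform, supplied 1015 of the 1163 alpha counts and was the 1 alpha row tested. Its log2 fold changes from day 0 to day 3 were -0.77 ± 0.52 (edgeR adjusted p = 0.226) and -0.95 ± 0.54 (edgeR adjusted p = 0.166), and it was called in none of the comparisons. Per kilobase of exon its mean level was 0.942 CPM per kb on WT day 0, against 2.46 CPM per kb for Pcdhgc3, and 0.55 against 17 CPM per kb on WT day 3. The other 12 alpha members had at most 21 counts in any library. Their sum was 1.19, 1.35 and 0.679 CPM in the KO day 3 libraries and 0.464, 0.176 and 0.168 CPM in the WT day 3 libraries, without overlap. On KO day 3 it also lay wholly above KO day 0, at means of 1.07 and 0.121 CPM, a ratio of 8.84. This ratio rests on few counts, 20, 22 and 12 on KO day 3 against 0, 0 and 5 on KO day 0. For Pcdha2 21 of 22 counts came from WT day 0 library 2, and for Pcdha4 14 of 21 counts came from KO day 3 library 2. In the fit without the filter Pcdha4 was called higher from day 0 to day 3 under the KO label (edgeR adjusted p = 0.0429).

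No member was called between the labels on day 0, where 0.119% of all genes tested were called, or on day 1, where 0.112% were called. Of the 29 members tested, 4 and 2 had an unadjusted edgeR p under 0.05, where 1081 and 1125 of all 14241 genes tested did so. DESeq2 called 0 and 1 members there, and the share of all genes that DESeq2 called is not given here for any comparison. For RANKL day 1 against day 0, 0 members were called by edgeR under either label, where 2.35% (WT) and 0.0211% (KO) of all genes tested were called. DESeq2 called 0 and 2 members. An unadjusted edgeR p under 0.05 was reached by 9 and 8 members, where 2914 and 1454 of all 14241 genes tested reached it. Under the WT label the edgeR count of 0 calls depended on 2 libraries, since 4 members were called without WT day 1 library 1x and 1 without WT day 0 library 3.

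The interactions of label with RANKL gave 0 calls among the members and 0.0% of all genes tested, both for day 3 minus day 0 and for day 3 minus day 1. At an unadjusted edgeR p under 0.05 there were 2 and 3 members, where 769 and 363 of all 14241 genes tested had one. DESeq2 called 1 member (Pcdhga1) in the first interaction and 0 in the second. A p that misses the threshold does not show that the changes were equal.

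Markers of stromal cells were high in the same groups as the beta and gamma sums. The summed level of the 14 stromal markers was 99.9, 549 and 4910 CPM in the WT day 0 libraries, 2880, 256 and 2530 CPM in WT day 1 libraries 1, 1x and 2, and 11300, 14500 and 12100 CPM in the WT day 3 libraries. In the libraries labelled KO it was 3700, 1140 and 3850 CPM on day 0, 3730, 2520 and 8500 CPM on day 1 and 21000, 30200 and 29700 CPM on day 3. WT day 0 library 3 thus had both the highest day 0 stromal sum and the highest day 0 gamma sum, and WT day 1 library 1x had the lowest of its group for both. The order did not match everywhere: WT day 3 library 2 had the highest stromal sum of its group and a gamma sum of 226 CPM against 252 CPM in library 3, and KO day 3 library 3 had 29700 CPM of stromal markers with the lowest gamma sum of its group, 219 CPM. On days 0 and 1 the stromal sums of the labels overlapped, whereas the beta sums were apart, at the main scaling alone. On day 3 the stromal sums of the KO libraries lay above those of the WT libraries, as did the beta sums, whereas the gamma sums overlapped.

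The collagens Col1a1 and Col1a2 made up most of the stromal sum, at mean levels of 5490 and 4130 CPM on WT day 3 and 10700 and 8620 CPM on KO day 3. With RANKL 9 of the 13 tested stromal markers were called higher under the WT label and 12 under the KO label. Of all genes tested, 23.7% and 20.2% were called higher. None of the 13 markers was called between the labels on day 3. Bglap, an osteoblast product, was at 0 counts in all WT libraries and at most 2 counts elsewhere. The 5 endothelial markers summed to between 4.69 and 78.1 CPM and were lower on WT day 3 (4.69 to 15 CPM) than on KO day 3 (20.4 to 78.1 CPM). In such bulk libraries fewer cells of a type and less RNA per cell cannot be told apart, and the part of the stromal and endothelial cells in the protocadherin results was not tested.

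**Figure D5:**
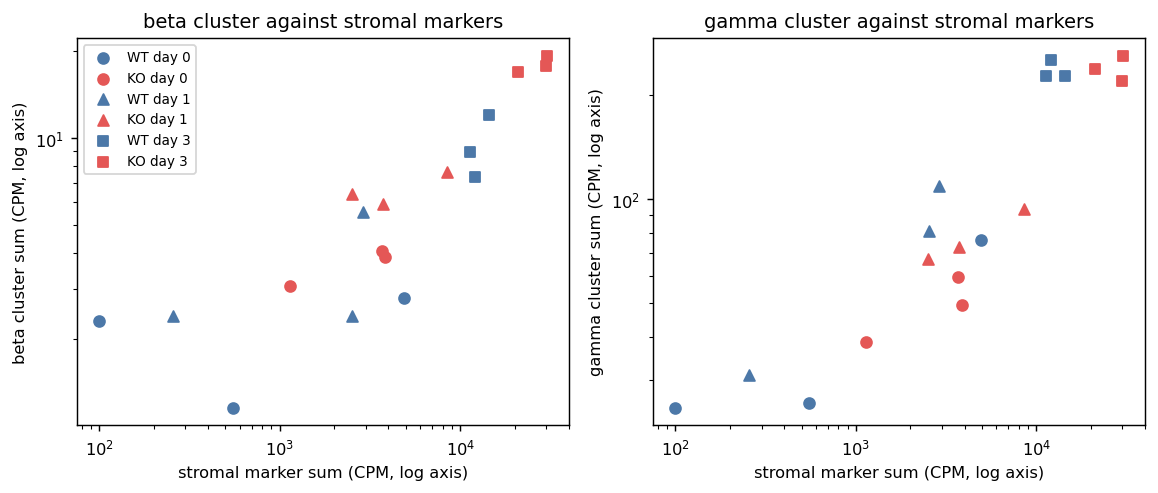
Beta sum (left) and gamma sum (right) in CPM on a log axis against the summed level of the 14 stromal markers in CPM on a log axis, 1 point per library, with colour for the label and shape for the RANKL day. The day 3 libraries hold the highest stromal sums (11300 to 30200 CPM) and the highest gamma sums, whereas the beta sum of WT day 3 library 3 (7.35 CPM) lies below that of KO day 1 library 3 (7.65 CPM).

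CTCF and cohesin are known to act at protocadherin promoters. Of 11 genes for CTCF, cohesin and its loaders, 3 were called higher and 3 lower from day 0 to day 3 under the WT label and 0 higher and 3 lower under the KO label, where 50.2% and 42.5% of all genes tested were called. Ctcf was called lower under the KO label, from 62.7 to 52.7 CPM (log2 fold change -0.25, edgeR adjusted p = 0.0205), and was not called under the WT label, at 61.9 and 56.3 CPM (edgeR adjusted p = 0.157). Nipbl, which loads cohesin, fell by 0.85 on the log2 scale under the WT label and by 0.56 under the KO label. The cohesin subunit Stag2 fell by 0.46 and 0.59. The cohesin subunits Rad21 and Smc1a and the cohesin regulator Pds5a rose under the WT label by log2 fold changes of 0.31, 0.34 and 0.36 and were not called under the KO label. Of 12 genes for DNA methylation and silencing of these arrays, 1 was called higher and 3 lower under the WT label. Under the KO label 2 were called higher and 2 lower. The shares of all genes tested that were called were 50.2% and 42.5%. Setdb1, a histone methyltransferase, fell by 0.53 and 0.65, and Smchd1, a silencing factor of these arrays, fell by 0.38 under the WT label and was not called under the KO label. Trim28 rose under the WT label by a log2 fold change of 0.69. The genes named are a part of those called in this list, and the called genes not named here rose or fell. None of these genes was called between the labels on any day.

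Of 19 genes for signalling and cleavage of protocadherins, 5 were called higher and 6 lower under the WT label and 2 higher and 7 lower under the KO label, against the same shares of all genes tested (50.2% and 42.5%). Ptk2, the focal adhesion kinase that binds the constant tails, rose by log2 fold changes of 0.81 and 1.00. Nckap1, a subunit of the WAVE actin-regulating complex, rose by 1.75 and 1.83, whereas its blood-cell counterpart Nckap1l fell by 0.43 and 0.64. Marcks, a membrane-bound actin regulator, fell by 2.08 and 1.33. The median log2 fold change of this list was -0.27 and -0.44, against -0.03 and -0.01 over all genes tested.

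The other cadherins that were called rose as well. Of 12 non-clustered protocadherins 7 were tested, and 4 were called higher under the WT label and 3 under the KO label, with none lower, where 23.7% and 20.2% of all genes tested were called higher. Pcdh7 went from 8.03 to 30.4 CPM and from 8.24 to 27.8 CPM in group means. Pcdh19 went from 5.16 to 28.2 CPM and from 6.76 to 38.8 CPM, and Pcdh10 from 0.0715 to 1.36 CPM and from 0.194 to 2.92 CPM. Of 11 classical cadherins and catenins 9 were tested, and 2 were called higher under the WT label and 3 under the KO label. This compares with the same 23.7% and 20.2% of all genes tested, so the WT count lies near the share of all genes. Cdh11, a cadherin typical of mesenchymal cells, went from 24.2 to 107 CPM and from 35.0 to 195 CPM.

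None of the tested genes beside or between the arrays was called higher. Hars2 and Zmat2 on one side and Diaph1 (Diap1 in the table) and Hdac3 on the other, together with Taf7 inside the span, had mean levels between 4.87 and 171 CPM in the groups. From day 0 to day 3 Taf7 fell by 0.70 and 0.84 on the log2 scale under the WT and KO labels and Diaph1 by 0.71 and 0.77, all called. Hars2 was called lower under the WT label and Zmat2 under the KO label, and Hdac3 was called in neither. Of the 24 other rows inside the span 10 had a count. The read-through loci Gm42416, Gm37013 and Gm37388, which overlap the arrays, were listed at 0 in every library. Gm38182, which lies across the gamma constant exons, had 90 counts in all, of which 61 were in KO day 3 library 1. The antisense rows BC037039 and Gm10544 had at most 16 and 10 counts in a library, and since use of strand in the counting is not given in the sources used here, their reads and those of the overlapping members cannot be told apart.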

How the data were processed

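Both a count of reads and an FPKM value were deposited by the authors for every gene in every library; the submitters' processing notes name StringTie and the builds GRCm38.p4 and mm10, the methods of the study name StringTie and Ballgown for the FPKM, and the aligner and the program that made the counts are not given in the sources used here. The deposited counts are whole numbers. For each row the deposited FPKM equals the count divided by 1 fixed length and the library total, so it holds no separate assignment of reads. The main test was the quasi-likelihood test of edgeR 4.0.16 (R 4.3.3) on the 14241 genes that filterByExpr kept, with TMM (trimmed mean of M values) scaling and 1 fit of the 18 libraries as 6 groups. Adjusted p is Benjamini-Hochberg over those genes, from 2-sided p, and a call is an adjusted p under 0.05. Cluster sums are summed counts of an array in CPM. Exonic bases, neighbours and symbols came from GENCODE M21 (GRCm38).

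The members, the gene lists and the tests were chosen with earlier results of these data known. Values are given per library for members called in any comparison and for the 8 members with the highest mean CPM, as group means or a range for members with a mean of at least 1 CPM in a group, by counts for the others, and up to 4 called genes are named per list. The same replicate numbers run across groups. The deviations of same-numbered libraries from their group means correlated at 0.0536, 0.501 and 0.598 between KO day 0 and KO day 1. They correlated at 0.13, 0.135 and 0.398 between KO day 0 and KO day 3 and at 0.218, 0.156 and 0.34 between KO day 1 and KO day 3. Between WT day 0 and WT day 3 the values were 0.111, -0.023 and 0.0514. Alternatives used DESeq2 1.42.0 (Wald test or size factors), other filters, the compared groups alone, title style or replicate number as a term, and each library left out. On simulated counts the script was tested with known changes. Floors and intervals cover counting error only, since copies made by PCR cannot be told from separate molecules. The values of 1 list gene are not reported here.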

Additional observations from a re-analysis of the deposited data

How the results depend on the processing

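DESeq2 calls are from its Wald test. The shares of all genes called are given for the main fit alone, so counts of members under the alternatives cannot be set against such a share. Between the labels on day 1, 1 member was called by DESeq2 and 1 with title style as a covariate (Pcdhga3 in both), against 0, and leaving out 1 library gave 0 to 1. On day 3 leaving out any 1 library gave 0 to 0 calls in place of 1. For RANKL day 1, leaving out 1 library gave 0 to 4 calls under the WT label, and under the KO label DESeq2 gave 2 and title style 1, against 0. For RANKL day 3 the filter of 5 CPM in 3 libraries, which left 12 members to test, gave 8 calls under the WT label in place of 14 and 7 under the KO label in place of 13. Without a filter both labels gave 16, including 2 (WT) and 5 (KO) members outside the main filter. Leaving out 1 library gave 10 to 18 and 11 to 15 calls. The interaction of day 3 minus day 0 gave 1 call with DESeq2, against 0.

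With replicate number as a block within label, RANKL day 3 gave 15 calls under the KO label and 14 under the WT label. With the number as a block Pcdhgc4 remained the 1 call between the labels on day 3. Of the same-number correlations given with the methods, 0.501 and 0.598 between KO day 0 and KO day 1 lay above every value between labels. So did 0.398 between KO day 0 and KO day 3. The others were weak, and libraries of different labels reached such values too. These were 0.187, 0.095 and 0.352 between WT day 0 and KO day 1, and -0.393, 0.168 and 0.321 between WT day 0 and KO day 0. The correlations thus do not settle whether same-numbered libraries came from 1 animal. The block moved no count of calls by over 1.5 times, and of the named calls it ended those of Pcdhb17 and Pcdhb19 (WT) and Pcdhgc4 (KO) with RANKL.

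The log2 ratio of the beta sum between the labels on day 1 was 0.74 to 1.46 when 1 library was left out, against 0.94. The gamma sum between the labels on day 0 was -0.05 to 0.95, against 0.22, and with RANKL day 3 under the WT label 2.2 to 3.21, against 2.47. Under the KO label, scaling by total counts gave 2.58 (beta) and 2.56 (gamma), and summed FPKM gave 2.56 and 2.61, against 2.30 and 2.28. Total counts moved all genes by 0.29 there and 0.36 under the WT label. The label changes of Pcdhga1, Pcdhga2 and Pcdhgb1 on day 3 became -0.26, -0.44 and -0.5 without KO day 3 libraries 3, 1 and 2, and reached 3.81, 4.75 and 3.03 without a WT day 3 library. No other named value, of 430 computed, changed direction, and 52 lost their call. Leaving out the 5 libraries with double-hyphen titles, chosen after seeing the data, gave 17 (WT) and 14 (KO) calls for RANKL day 3 and 1 between the labels on day 3.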
